A study of Mus musculus with 6 samples.

Results

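The visceral endoderm and yolk sac genes described here are *Afp*, *Ttr*, *Rbp4*, *Apob*, *Apoa1*, *Apoa4*, *Cubn* and *Amn*, 8 of the 24421 genes in the count table, which were chosen by symbol as known markers of this tissue. Their level was followed in 6 RNAseq libraries of mouse embryonic heads at embryonic day (E)9.0, 3 WT (labelled *SnrpB* +/+) and 3 mutant (*Snrpb* ncc+/-). Each library was made from 2 pooled heads of 1 genotype with similar somite numbers, so that a replicate is a pool and not a single embryo. Mutants carried 1 deleted *Snrpb* allele only where *Wnt1-Cre2* is active, in the neural tube and neural crest. All other cells of the mutant heads kept both copies, as would any visceral endoderm left with them. The labels name both C57BL/6 and CD1 for the mice. Yolk sacs were taken for genotyping when the heads were dissected, and the labels name the sequenced tissue as head.

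The visceral endoderm is the extraembryonic epithelium that covers the early mouse embryo and later lines the yolk sac. Before the liver forms and the placenta is at work, it takes up proteins and lipids from the maternal side, digests them, and secretes carrier proteins and lipoproteins towards the embryo. Its genes are also used by the liver, kidney and intestine of the adult, and are not markers of the head. The members fall into secreted carriers (*Afp*, *Ttr* and *Rbp4*), apolipoproteins (*Apob*, *Apoa1* and *Apoa4*) and the cubam receptor of endocytosis (*Cubn* and *Amn*).

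Total counts per library ranged from 36378803 to 74909774, and the level of *Snrpb* itself, in CPM (counts of the gene scaled by the TMM-adjusted size of its library), was 427.4 ± 12.2 in WT and 426.4 ± 12.5 in mutants (SD, *n* = 3 each, adjusted *P* = 0.990, edgeR), so its level in whole heads did not check the genotype labels. The head identity of the libraries was checked with 13 markers, such as *Otx2* and *Sox2*, which all passed the filter on low counts and summed to 488.0 to 547.3 CPM. WT replicate 1 stood apart from the other libraries in the genes described here, and each comparison is therefore given with and without it.

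Factors of the FOXA, HNF1, HNF4 and GATA families are known to act on genes of this kind in liver and yolk sac, and the promoters of the members were read for the letters they bind. RefSeq promoters (build GRCm38.p6) were at hand for 7 of the 8 members, with *Rbp4* having 2 promoters, and the 250 bases before each start were searched on both strands for 6 short motifs, of which no matches overlapped each other. The FOXA site TGTTTGC was in promoters of 3 members, *Afp*, *Apoa1* and *Apob*, and in 4.30% of all 32851 promoters of the same length, and its other form TGTTTAC was in that of *Rbp4* (3.17% of all promoters). The HNF1 half-site GTTAAT was in that of *Afp* (6.43%), the HNF4 site CAAAGTNCA in that of *Apoa4* (1.19%), the TATA box TATAAA in those of *Afp*, *Apob* and *Rbp4* (12.4%), and the GATA site AGATAA in 0 of the 8 member promoters (9.99%). A match describes the letters only. The 3 promoters with TGTTTGC are shown 5′ to 3′, ending before the first annotated base of the gene, with matches in capitals (in *Apob* the FOXA match reads GCAAACA, on the opposite strand). *Afp* is at chr5:90490464-90490713, *Apoa1* at chr9:46228380-46228579 and *Apob* at chr12:7977427-7977647, all on the + strand.
Afp: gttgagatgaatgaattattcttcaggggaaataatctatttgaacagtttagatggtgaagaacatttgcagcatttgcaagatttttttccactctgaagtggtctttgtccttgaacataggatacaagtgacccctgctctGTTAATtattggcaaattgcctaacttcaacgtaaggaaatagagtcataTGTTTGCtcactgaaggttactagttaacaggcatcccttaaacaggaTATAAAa
Apoa1: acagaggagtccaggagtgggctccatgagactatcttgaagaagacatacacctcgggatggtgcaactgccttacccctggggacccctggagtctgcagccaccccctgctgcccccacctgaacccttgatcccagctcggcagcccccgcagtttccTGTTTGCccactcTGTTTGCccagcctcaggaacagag
Apob: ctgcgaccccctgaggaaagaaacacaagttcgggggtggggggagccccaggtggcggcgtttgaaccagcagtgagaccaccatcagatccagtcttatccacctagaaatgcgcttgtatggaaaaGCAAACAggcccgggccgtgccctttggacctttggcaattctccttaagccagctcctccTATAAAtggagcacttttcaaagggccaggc

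All 8 genes were expressed at a low level, and all 8 were highest in the same library, WT replicate 1. Over all 15584 genes tested, 24.7% were highest in WT replicate 1. The summed level of the 8 genes was 35.9 CPM in WT replicate 1 and 8.28 and 8.70 CPM in WT replicates 2 and 3, against 10.5, 8.55 and 8.09 CPM in mutant replicates 1, 2 and 3. *Apob* made up a large share of this sum, and without it the sum was 21.2 CPM in WT replicate 1, 4.75 and 3.89 CPM in WT replicates 2 and 3, and 6.68, 4.71 and 4.06 CPM in mutant replicates 1, 2 and 3. Thus, the largest excess was in 1 of 3 WT pools, and mutant replicate 1 was above the remaining 4 libraries. For 5 of the 8 genes, mutant replicate 1 was the second highest library.

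**Figure D1:**
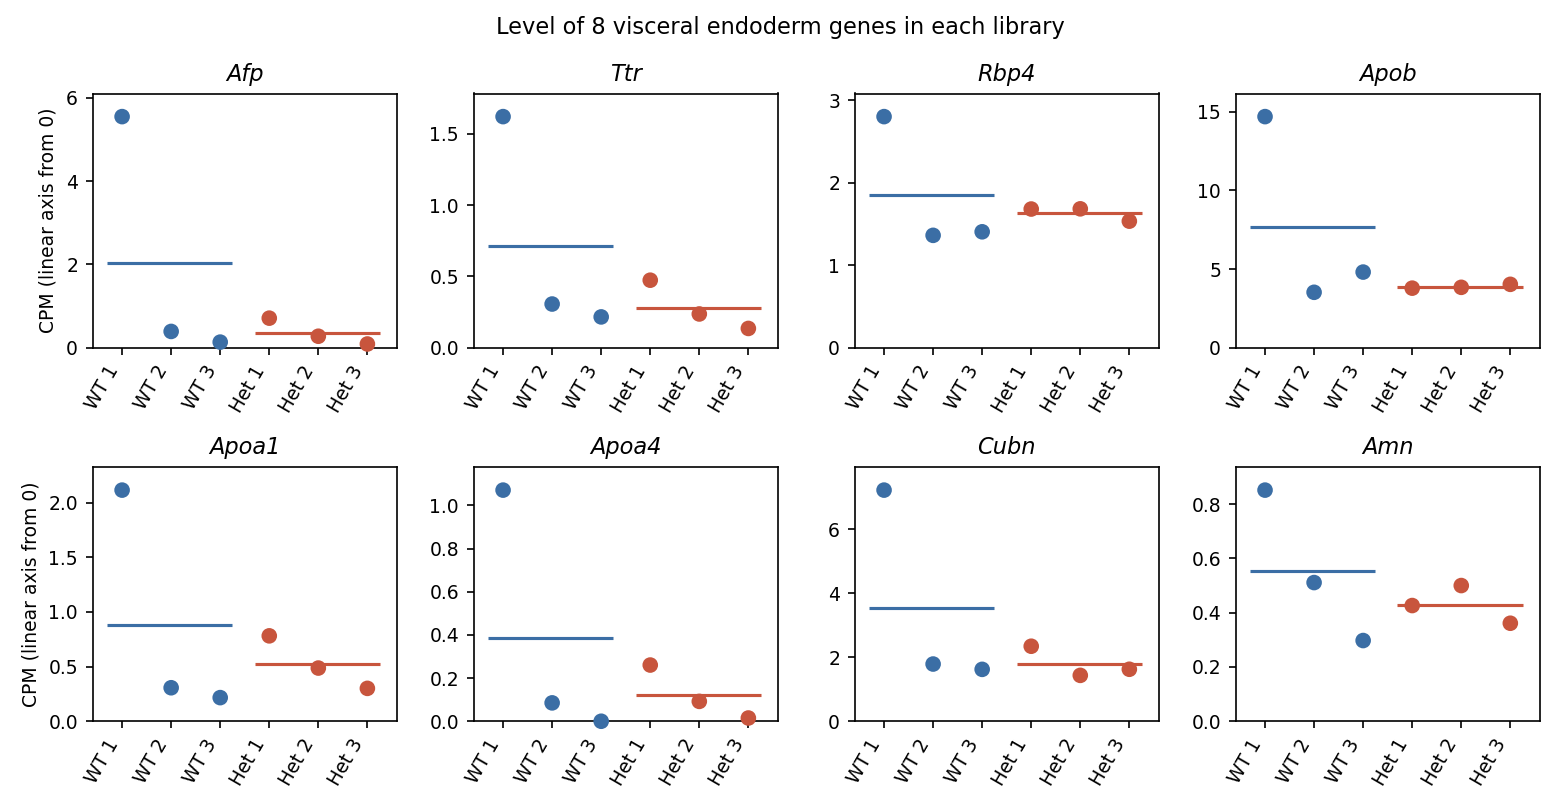
Level of each gene in each library, in CPM on linear axes that start at 0 (points, libraries; horizontal lines, means of 3 WT libraries in blue and 3 mutant libraries, Het, in red). WT replicate 1 is the highest point in all 8 panels, and the other WT points lie among the mutant points or close to them.

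Among the carriers, *Afp* encodes alpha-fetoprotein, the main plasma protein of the fetus, and lies at chr5:90490737-90508907 (mm10). It was at 5.55 CPM (202 counts) in WT replicate 1, 0.392 CPM (23 counts) in WT replicate 2 and 0.135 CPM (5 counts) in WT replicate 3. In mutants it was at 0.710 CPM (30 counts), 0.276 CPM (21 counts) and 0.0903 CPM (6 counts). The level in WT replicate 1 was 7.81 times that of the next library, mutant replicate 1, and their exact Poisson intervals were far apart (4.81 to 6.37 CPM and 0.479 to 1.01 CPM, 95%, counting error only). WT heads had a mean of 2.03 ± 3.05 CPM and mutant heads one of 0.359 ± 0.318 CPM (SD, *n* = 3 each), so the SD in WT exceeded the mean. With edgeR, *Afp* had a log2 fold change of −2.57 in mutants (standard error 1.59) at an adjusted *P* of 0.710, and without WT replicate 1 it was 0.21 (standard error 0.89). An antisense gene, *Gm43449*, overlaps *Afp*, and since no source used here tells whether reads were counted by strand, reads of the 2 genes cannot be told apart.

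*Ttr* encodes transthyretin, which carries thyroid hormone and the retinol-binding protein in plasma, and lies on chromosome 18. It was at 1.62, 0.307 and 0.216 CPM in WT replicates 1 to 3 and at 0.474, 0.237 and 0.135 CPM in mutant replicates 1 to 3. The order of the 6 libraries was that of *Afp*, with WT replicate 1 first and mutant replicate 1 second, and the groups overlapped. EdgeR gave *Ttr* a log2 fold change of −1.37 (standard error 0.89) at an adjusted *P* of 0.716, and −0.029 without WT replicate 1.

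*Rbp4* encodes the plasma carrier of retinol, which travels bound to transthyretin. It was at 2.80, 1.36 and 1.41 CPM in WT and at 1.68, 1.68 and 1.53 CPM in mutants. Unlike *Ttr*, it was held at a nearly constant level in the libraries other than WT replicate 1, with a highest value 1.24 times the lowest among those 5. The mutant values all lay between WT replicate 3 and WT replicate 1. EdgeR gave *Rbp4* a log2 fold change of −0.17 (standard error 0.28) at an adjusted *P* of 0.893, and 0.24 (standard error 0.17) at an adjusted *P* of 0.675 without WT replicate 1.

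Of the apolipoproteins, *Apob*, the structural protein of large lipoproteins, had the highest CPM of the 8 genes, before any division by exon length. It made up 36.2% to 55.3% of their summed CPM in each library. It was at 14.7 CPM (535 counts) in WT replicate 1 and at 3.53 and 4.81 CPM in WT replicates 2 and 3, while mutants were at 3.79, 3.84 and 4.03 CPM. The mutant pools varied little (3.89 ± 0.128 CPM, SD, *n* = 3) and lay between WT replicates 2 and 3. In the edgeR fit its log2 fold change was −0.96 (standard error 0.58) at an adjusted *P* of 0.701. Without WT replicate 1 it was −0.090 with a 95% interval of −0.44 to 0.26.

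*Apoa1*, the main protein of high-density lipoprotein, and *Apoa4*, a lipoprotein component of intestine and yolk sac, lie close to each other on chromosome 9 (*Apoa1* at chr9:46228580-46230466 and *Apoa4* at chr9:46240696-46243459, mm10). *Apoa1* was at 2.11, 0.307 and 0.216 CPM in WT and at 0.781, 0.487 and 0.301 CPM in mutants. *Apoa4* was at 1.07, 0.0852 and 0 CPM in WT, where the 0 of WT replicate 3 allows up to 0.0811 CPM (3 counts), and at 0.260, 0.0921 and 0.0150 CPM in mutants. Both genes had WT replicate 1 first and mutant replicate 1 second. By edgeR, the log2 fold change of *Apoa1* was −0.74 (standard error 0.93) at an adjusted *P* of 0.867, and without WT replicate 1 it had the opposite sign and the largest size of the 7 genes, 0.90 (95% interval −0.14 to 1.94, adjusted *P* = 0.555). *Apoa4* was below the filter on low counts and was not tested with edgeR, and DESeq2 gave it a log2 fold change of −1.67 (standard error 1.93). *Gm47528* and *Gm10680* overlap *Apoa4* on the opposite strand, and their reads cannot be told apart from its own.

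*Cubn* encodes cubilin, the large receptor that binds vitamin B12 with intrinsic factor, albumin and *Apoa1* lipoprotein, and *Amn* encodes amnionless, the membrane partner that brings cubilin to the cell surface. *Cubn* was at 7.22, 1.79 and 1.62 CPM in WT and at 2.34, 1.43 and 1.62 CPM in mutants. *Amn* was at 0.851, 0.511 and 0.297 CPM in WT and at 0.426, 0.500 and 0.361 CPM in mutants. The 2 partners thus did not move in proportion, with WT replicate 1 at 4.45 times the median of the other libraries for *Cubn* and 2.00 times for *Amn*. EdgeR gave *Cubn* a log2 fold change of −0.97 (standard error 0.67) at an adjusted *P* of 0.737 and *Amn* one of −0.35 (standard error 0.36) at an adjusted *P* of 0.831. Without WT replicate 1 these were 0.045 and 0.039. *Gm13270* overlaps *Cubn* on the opposite strand.

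CPM also depends on the length of a gene, so levels were compared between the genes after division by exon length (CPM per kb, with exons of the Gencode M21 annotation). In WT replicate 1, *Rbp4* was highest at 2.09 CPM per kb, followed by *Apoa1* (1.71), *Afp* (1.65), *Ttr* (1.37), *Apob* (1.05), *Apoa4* (0.590), *Cubn* (0.484) and *Amn* (0.462). By the median of the other 5 libraries, *Rbp4* was again highest at 1.14 CPM per kb, and *Afp* and *Apoa4* were lowest at 0.0820 and 0.0469 CPM per kb. *Afp* was therefore one of the lowest of the 8 in most libraries and the third in WT replicate 1, where its share of the members' summed CPM was 15.4%, against 1.12% to 6.79% in the other libraries. *Rbp4* went the other way, with 7.80% in WT replicate 1 and 16.1% to 19.7% elsewhere.

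**Figure D2:**
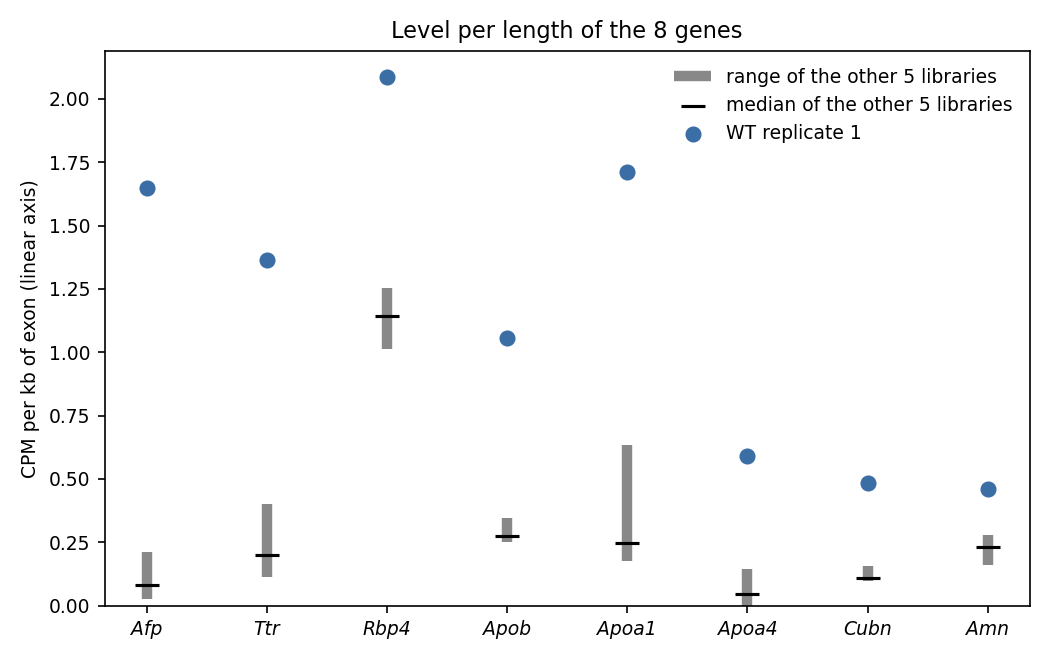
Level per kb of exon of each gene in WT replicate 1 (blue points) and in the other 5 libraries (gray bars, lowest to highest; black dashes, median), in CPM per kb on a linear axis from 0. *Rbp4* keeps a median of 1.14 CPM per kb in the other libraries, while *Afp* and *Apoa4* fall close to 0.

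The genes differed in how much of their level was present in every library. WT replicate 1 was at 20.1 times the median of the other 5 libraries for *Afp*, 12.6 times for *Apoa4*, 6.90 times for *Apoa1*, 6.84 times for *Ttr* and 3.83 times for *Apob*, and at 1.83 times for *Rbp4*. The carriers and small apolipoproteins with the largest excess also varied most among the other 5 libraries, by 7.87 times from lowest to highest for *Afp*, 3.61 times for *Apoa1* and 3.50 times for *Ttr*. The same spread was 1.36 times for *Apob*, 1.63 times for *Cubn* and 1.72 times for *Amn*. The biological coefficient of variation estimated by edgeR was 1.17 for *Afp*, above 99.9% of tested genes, and 0.612 (above 99.6%) without WT replicate 1, whereas that of *Apob* went from 0.474 (above 99.2%) to 0.114 (above 70.0%) and that of *Rbp4* from 0.231 (above 93.9%) to 0.105 (above 66.4%). Hence *Afp* was among the most variable genes with or without WT replicate 1, and *Apob* only with it. In these bulk libraries, fewer cells of a type and less RNA per cell cannot be told apart.

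To set this excess beside that of other genes, the 15584 tested genes, which had to pass the filter in at least 3 libraries and not through WT replicate 1 alone, were ordered by the ratio of the level in WT replicate 1 to the highest of the other 5 libraries. The measure was chosen after the values were seen and is a description. The median ratio was 0.927, and 25 genes (0.160%) had a ratio above 2. *Afp* was at place 1 with a ratio of 7.81, *Ttr* at place 2 with 3.42, *Cubn* at place 4 with 3.08, *Apob* at place 5 with 3.05 and *Apoa1* at place 7 with 2.71. *Amn* and *Rbp4* were at places 69 and 71, with ratios of 1.67 and 1.66. *Apoa4* did not pass the filter, and its ratio was 4.11. Larger ratios were found below the filter in genes that are not members, named after their values were seen. These were *Gzmg* (24.7, at 1.26 CPM in WT replicate 1), *Gzme* (22.6), *Gzmf* (16.2) and *Gzmd* (6.50). The places given here therefore hold for tested genes only.

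**Figure D3:**
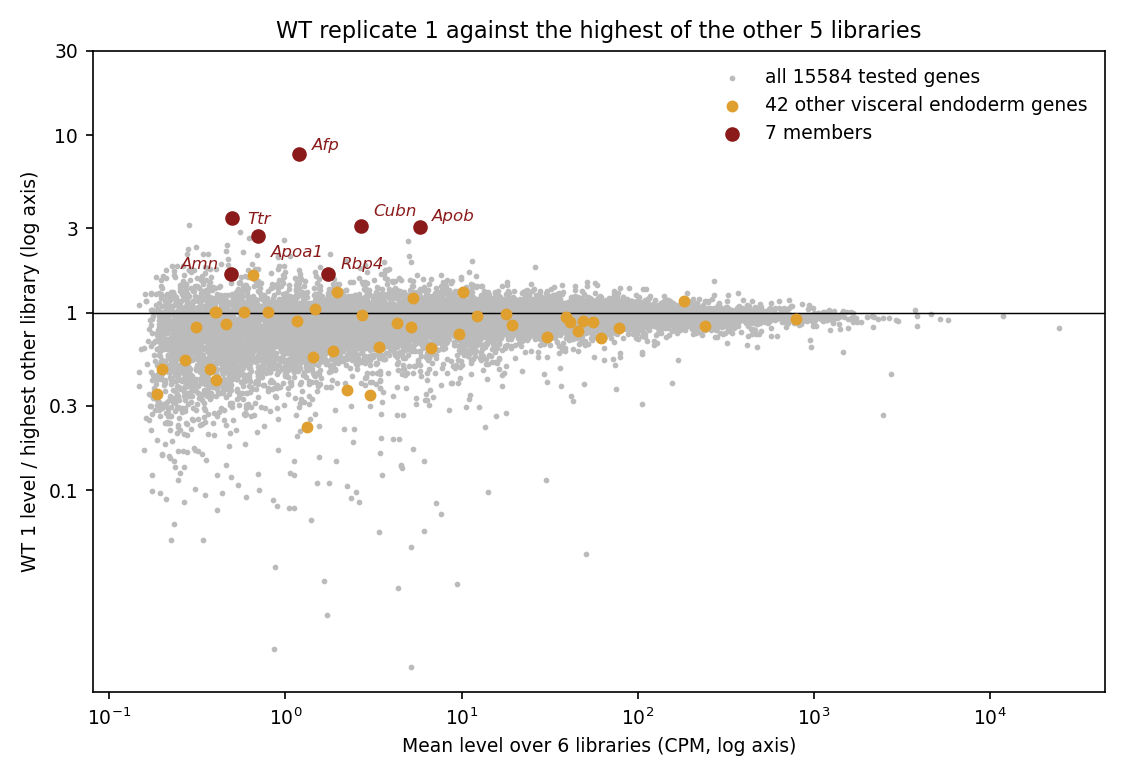
Level in WT replicate 1 divided by the highest of the other 5 libraries (log axis) against the mean CPM over 6 libraries (log axis) for 15584 tested genes (gray), the 7 members among them (dark red) and other genes of the visceral endoderm lists (orange), leaving out 3 genes with a ratio of 0. The members lie between 1.66 and 7.81, whereas the median of all genes is 0.927 and most of the other listed genes lie near 1 or below.

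Some genes of the visceral endoderm lists that were below the filter were also highest in WT replicate 1, and are named here after their values were seen. *Hnf4a*, a transcription factor that drives lipoprotein genes in this tissue, was at 0.549 CPM in WT replicate 1 and at 0 to 0.158 CPM in the other libraries. *Slc2a2*, a glucose transporter, was at 0.879 CPM against 0 to 0.237 CPM, *Apoa2*, another protein of high-density lipoprotein, at 0.577 CPM against 0.0270 to 0.187 CPM, and *S100g*, a calcium-binding protein, at 0.714 CPM against 0 to 0.237 CPM.

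The difference between WT and mutant heads was tested with edgeR across all 15584 genes that passed the filter, 7 of the 8 members among them. At an adjusted *P* under 0.05, 0 of 7 members were called, where 0.00642% of all genes were, and at an unadjusted *P* under 0.05 also 0 of 7 (4.09% of all genes lower and 4.34% higher). DESeq2 called 0 members as well (0.398% of all genes), and 0 were at an unadjusted *P* under 0.05 (2.92% of all genes lower and 2.27% higher). All 7 log2 fold changes were negative, with a median of −0.96 beside 0.0004 for all tested genes. The genotype groups overlapped in all 8 genes, where 15.2% of tested genes did not overlap (6.92% with all mutants lower). Exact permutation tests of log2 CPM (two-sided) gave *P* = 0.4 to 1 over the 8 genes, and 3 against 3 libraries allow no *P* below 0.1.

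The direction rested on 1 library. The mean was lower in mutants for 8 of 8 genes with all libraries, and without WT replicate 1 it was higher in mutants for 7 of 8, *Apob* being the exception. The median log2 fold change then was 0.045, 0 of 7 members were called (0.0376% of all genes), 0 of 7 were at an unadjusted *P* under 0.05 (4.5% of all genes lower and 5.54% higher), and 5 of the 7 log2 fold changes were above 0. The remaining intervals were narrow for *Apob* and *Rbp4* (−0.14 to 0.61) and wide for *Afp* (−2.00 to 2.41), which had 5 to 30 counts in those libraries.

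**Figure D4:**
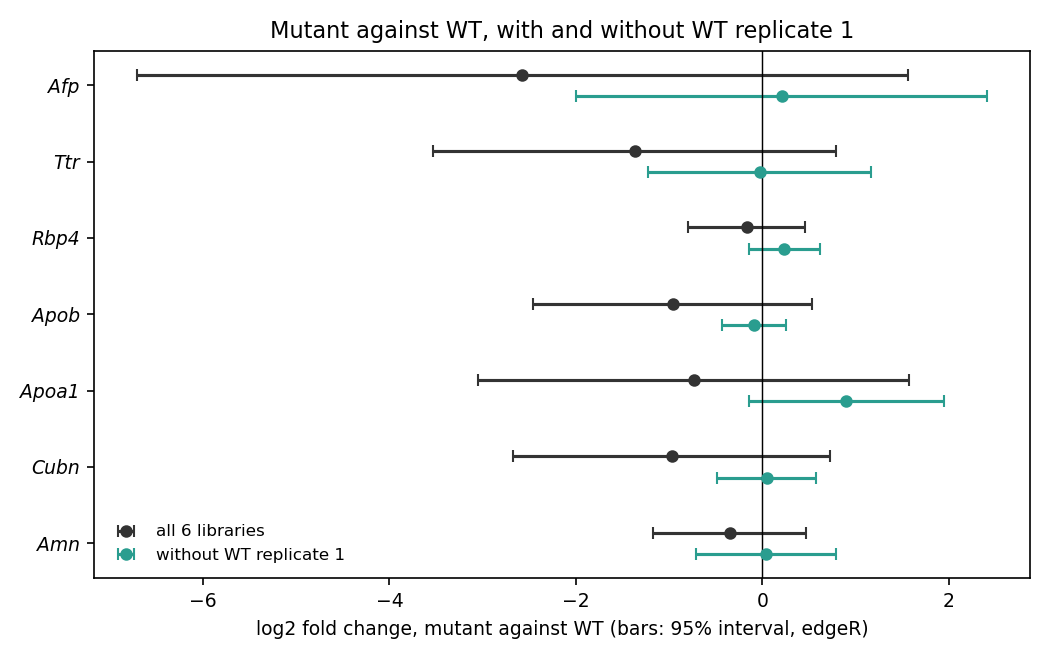
Log2 fold change of mutant against WT for the 7 tested genes (points; bars, 95% intervals of the edgeR fit), with all 6 libraries (black) and without WT replicate 1 (green). All black points are below 0 and all black intervals cross 0, and the green points lie between −0.090 and 0.90.

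The wider visceral endoderm programme was read from 6 lists of partners, regulators and markers, 68 genes in the table, of which 42 were tested. Of these, 0 were called at an adjusted *P* under 0.05 with edgeR (0.00642% of all genes) and 0 with DESeq2, and in the edgeR fit 1 was lower and 1 higher at an unadjusted *P* under 0.05 (4.09% and 4.34% of all genes). The median log2 fold change was 0.02, and 18 of the 42 were below 0. Of the 65 with any count, including some below the filter, 19 were highest in WT replicate 1, where 24.7% of all tested genes were. Most of the listed genes, like most genes tested, were thus not highest in that library, unlike the 8 members.

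Lipoprotein assembly needs *P4hb*, a subunit of the lipid transfer complex, which averaged 807.9 ± 33.1 CPM for WT heads and 782.6 ± 20.8 CPM for mutant heads (SD, *n* = 3 each, as for the means that follow) and is used by most secreting cells. *Apoe* was at 79.3 ± 6.74 CPM and 78.0 ± 7.89 CPM. *Mttp*, the other subunit of that complex, named after its values were seen, was at 7.87 to 12.6 CPM in all libraries and was not highest in WT replicate 1, and *Apoc3*, a gene of the same cluster as *Apoa1* and *Apoa4*, had at most 2 counts in any library. The largest change in this list was in *Apoa5* (log2 fold change 1.04, adjusted *P* = 0.635, edgeR).

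Of the endocytosis partners, *Lrp2*, the megalin receptor that works beside cubilin, was at 229.3, 160.4 and 196.7 CPM in WT and 151.8, 168.8 and 192.8 CPM in mutants, with WT replicate 1 highest by a small margin. *Lrpap1*, its chaperone, was at 55.3 ± 2.78 CPM in WT and 56.5 ± 2.11 CPM in mutants, and *Fcgrt*, the receptor that recycles albumin and IgG, had the largest log2 fold change of this list, −0.41 (adjusted *P* = 0.772, edgeR). Of the retinol partners of *Rbp4*, *Stra6*, its cell surface receptor, was at 14.2, 10.8 and 8.73 CPM in WT and 9.38, 8.26 and 9.39 CPM in mutants, again with WT replicate 1 first, and was not called (adjusted *P* = 0.643, edgeR).

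Of 17 plasma proteins made by liver and yolk sac, 3 passed the filter, and the 2 highest were *Vtn* (5.30 ± 0.699 CPM in WT and 5.01 ± 0.770 CPM in mutants) and *Trf*, the iron carrier transferrin (2.93 ± 0.551 CPM and 2.53 ± 0.202 CPM). *Alb*, the albumin gene next to *Afp*, also named after its values were seen, had 0 or 1 count in each library. Among the regulators, *Foxa2* was at 12.4 ± 0.0534 CPM in WT and 12.2 ± 0.693 CPM in mutants, *Sox17* at 6.57 ± 1.53 CPM and 6.78 ± 0.603 CPM, and *Foxa3* had the largest log2 fold change, 1.00 at an adjusted *P* of 0.481 (edgeR, standard error 0.35). The endoderm factors *Gata4* and *Gata6*, named after their values were seen, were lowest in WT replicate 1, at 0.467 and 1.48 CPM. Of the other markers, *Emb* (234.1 ± 21.5 CPM and 246.9 ± 8.72 CPM) and *Cldn6* (59.3 ± 9.83 CPM and 64.8 ± 1.32 CPM) were highest, and *Soat2* had the largest change (log2 fold change −0.28, adjusted *P* = 0.874, edgeR).

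Markers of other tissues that can lie next to the head were compared in the same libraries. Of 10 primitive erythroid genes, *Hba-a1* and *Hba-a2* were at 0 in every library, and 7 of the other 8 were highest in WT replicate 1, where the list summed to 1529 CPM against 901.8 to 1243 CPM elsewhere. *Hbb-y*, an embryonic globin of yolk sac erythroid cells, was at 459.0 CPM there and 200.8 to 302.8 CPM elsewhere. All 10 cardiac muscle genes were lowest in WT replicate 1, with a sum of 20.1 CPM against 63.1 to 290.7 CPM. The placental hormone *Prl3d1*, a gene of trophoblast giant cells, was at 3.13, 0.392 and 0.108 CPM in WT and 2.18, 1.00 and 0.0451 CPM in mutants, high in the same 2 libraries as *Afp*, and *Prl2c2*, of a family of near-identical copies and named after its values were seen, was at 2.20, 0.272 and 0.0811 CPM and 2.46, 0.724 and 0.0451 CPM. The 9 trophoblast genes summed to 7.94 CPM in WT replicate 1 and 7.46 CPM in mutant replicate 1 against 2.30 to 4.43 CPM elsewhere, and *Synb* was at 0. *Prl3d1* and *Prl2c2* made up most of the sum in those 2 libraries. *Plac1* was at 1.26 CPM in WT replicate 1 and 0.857 to 1.04 CPM elsewhere. *Elf5*, with the largest change of the list (log2 fold change 0.65, adjusted *P* = 0.484, edgeR), was lowest in WT replicate 1, at 0.467 CPM against 0.703 to 1.11 CPM. The part of any of these tissues in the levels of the 8 members was not tested.

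**Figure D5:**
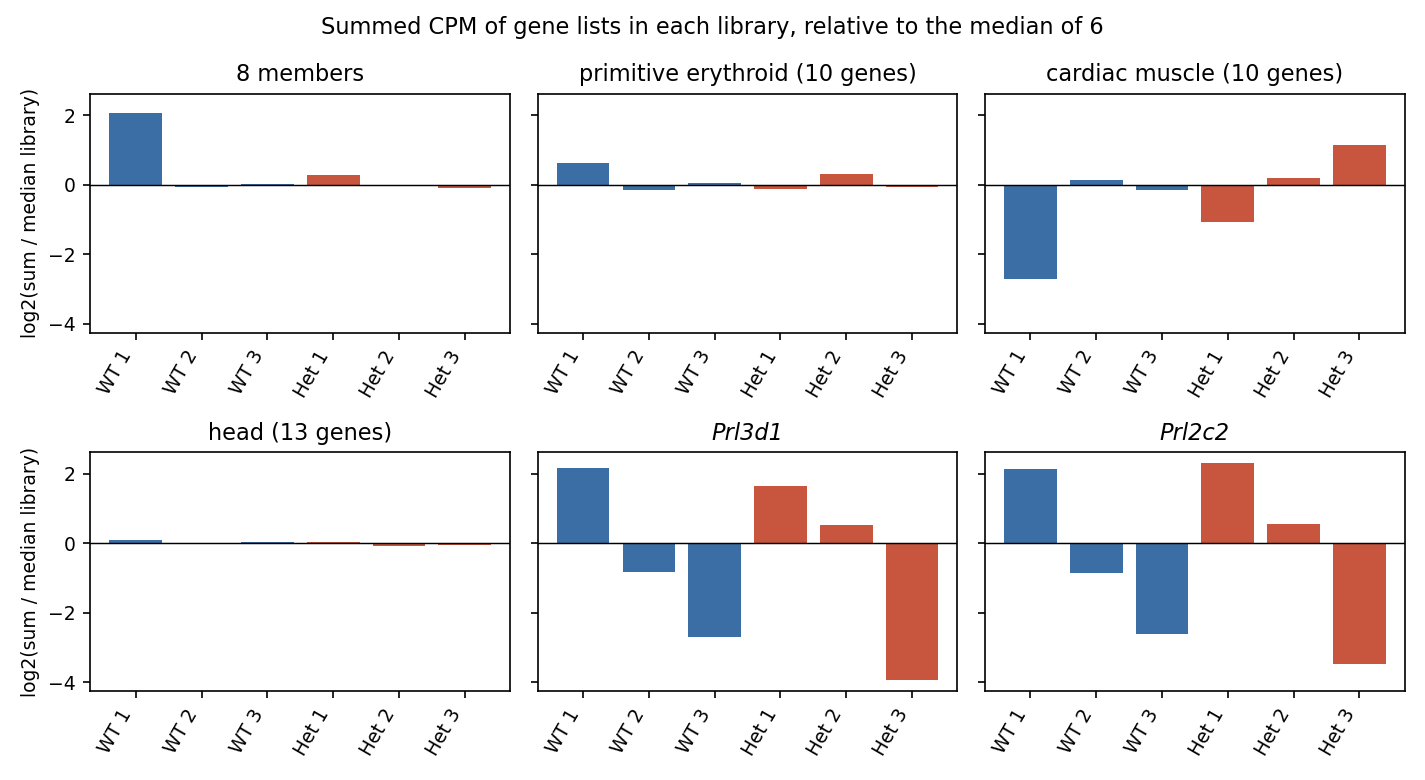
Log2 of the summed CPM in each library over the median of the 6 libraries, for the 8 members, 3 marker lists and 2 trophoblast genes (blue, WT; red, mutants, Het). In WT replicate 1 the members are at 2.06, the erythroid list at 0.61 and the cardiac list at −2.72, whereas the head list stays between −0.08 and 0.09.

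The sums of other tissue lists moved less. Parietal endoderm genes, led by *Col4a1* and *Lamb1*, summed to 1331 CPM in WT replicate 1 and to 1222 to 1413 CPM elsewhere, and the largest change was in *Nid1* (log2 fold change −0.36, adjusted *P* = 0.468, edgeR). Genes of the hepatic bud, the start of the embryo's own liver, summed to 83.9 CPM against 57.8 to 70.5 CPM, most of it *Dlk1* (62.6 CPM in WT replicate 1). In the same list, *Tbx3* was at 11.6 ± 1.08 CPM in WT and 12.3 ± 1.28 CPM in mutants, and *Onecut1* had the largest change (log2 fold change −0.62, adjusted *P* = 0.723, edgeR). Foregut and pharynx genes were lower in WT replicate 1 than elsewhere (263.0 CPM against 284.4 to 300.6 CPM). Most of this sum was *Sox2*, also used here as a head marker, at 169.5 CPM in WT replicate 1 and 144.3 to 160.9 CPM elsewhere. Of the 9 genes, 6 were lowest in WT replicate 1 and 1, *Sox2*, was highest. *Epcam* was at 45.2 CPM there against 65.0 to 71.6 CPM. *Tbx1*, with the largest change of the list (log2 fold change 0.41, adjusted *P* = 0.693, edgeR), was at 7.55 CPM against 12.9 to 17.8 CPM. The sum of extraembryonic mesoderm genes was within the range of the other libraries (23.1 CPM against 22.2 to 29.3 CPM). That of posterior trunk genes also was (4.28 CPM against 4.05 to 6.63 CPM). The genes with the largest changes of these lists were *Vcam1* and *T* (log2 fold changes −0.45 and 0.52, adjusted *P* = 0.435 and 0.623, edgeR). *Vcam1* was highest in WT replicate 1 (7.77 CPM against 4.29 to 6.22 CPM) and *T* was lowest there (1.73 CPM against 3.00 to 4.56 CPM). No gene of these lists was called in mutants with edgeR.

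The pattern of the 8 members over the 6 libraries, taken as the mean of their centred log2 CPM, was 1.91 in WT replicate 1, −0.28 and −0.81 in WT replicates 2 and 3, and 0.27, −0.28 and −0.81 in mutant replicates 1 to 3. Of 13046 genes outside the lists with a mean of at least 1 CPM, those with the most similar pattern were *Zfp444* (Pearson's *r* = 0.988), *Fgf18* (0.986), *Slc25a39* (0.985), *Dph2* (0.984) and *Smap2* (0.983). These correlations are over 6 points of shared libraries and describe the shape of the pattern and not the size of the differences. WT replicate 1 was only 1.04 to 1.35 times the next library in these 5 genes. The order of the libraries was not always that of the members, with a rank correlation of 0.829 for *Dph2* and 0.943 for *Slc25a39*. Without WT replicate 1 and mutant replicate 1, *r* ranged from 0.695 to 0.997. Of the 7 tested members, *Afp* followed the mean pattern most closely (0.992) and *Apob* least (0.853). Each member is itself part of that mean, which raises its correlation.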

How the data were processed

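RNAseq counts of 6 libraries were used as deposited: 1 table of whole-number counts per gene, which the authors made from reads trimmed and aligned to mm10 with STAR. The methods name HTSeq with Gencode M2 for the counting and the submitters' processing notes name featureCounts, and the strand setting is not given in the sources used here. Overlapping genes on opposite strands may therefore share reads.

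The members and gene lists were chosen with earlier results of these data known. Counts were scaled by TMM and tested with edgeR 4.0.16 in R 4.3.3 (filterByExpr by genotype, quasi-likelihood test with robust dispersions, two-sided, Benjamini-Hochberg over 15584 genes, threshold 0.05, no covariate), on the 3 WT and 3 mutant libraries. CPM uses TMM-adjusted library sizes. Log2 CPM has a prior count of 2. Poisson intervals are exact (95%), and a count of 0 allows up to 3 counts. These cover counting error only. P-values measure the spread between pools of 2 heads. Alternatives were DESeq2 1.42.0 (the authors' tool), its size factors, library size alone, other filters on low counts, the replicate number as a block and each library left out in turn. The edgeR fit was tested on simulated data.

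The text names all members, *Snrpb*, for each visceral endoderm list the called genes, the 2 with the highest mean and the tested gene with the largest change, and the 5 most alike genes, and other tissue lists by their sums with examples chosen by the same rule. Others are said to be chosen after their values were seen. Gene positions and exon lengths are from Gencode M21 (mm10), and promoters from RefSeq (GRCm38.p6). A gene of the retinol list is not reported here.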

Additional observations from a re-analysis of the deposited data

How the results depend on the processing

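The counts of called members and of called visceral endoderm genes were 0 under every alternative run. With all libraries kept, the median log2 fold change of the members was between −0.98 and −0.65 and every member tested was below 0. Leaving out 1 library each, the median ranged from −1.32 to 0.045, *Afp* from −3.38 to 0.21, *Rbp4* from −0.36 to 0.24, *Apoa1* from −1.20 to 0.90, *Cubn* from −1.32 to 0.045 and *Amn* from −0.63 to 0.039, while *Ttr* (−1.86 to −0.029) and *Apob* (−1.32 to −0.090) kept their sign. All 5 reversals came without WT replicate 1, where the median was 0.045. Of the 81 log2 fold changes of members over these alternatives, 76 kept their sign. Same-numbered WT and mutant libraries deviated together with *r* = 0.169, 0.032 and 0.360, so the numbers were not taken as pairs. With the replicate number as a block, the median was −0.69, *Afp* was at −1.83 (adjusted *P* = 0.507, edgeR) and 0 members were called, with 2 (*Afp* and *Ttr*) at an unadjusted *P* under 0.05. DESeq2 gave no adjusted *P* for *Ttr*, *Apoa1*, *Apoa4* and *Amn*. At least 10 counts in every library left 4 members. Depth limits the less abundant members: outside WT replicate 1, *Afp*, *Ttr*, *Apoa1*, *Apoa4* and *Amn* had at most 38 counts in a library.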
